A study of Mus musculus with 6 samples.

Results

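Homologous recombination genes, Fanconi anaemia genes and the damage signalling genes that act with them were followed as a set of 40, taken by symbol from a list of mediators, strand exchange factors, resection enzymes, checkpoint kinases, Fanconi proteins and nucleases. All 40 were found among the 27179 Entrez Gene identifiers of the count table. All 40 had at least 100 counts in every library, and all 40 were among the 14199 genes tested. The RNA, selected by its poly(A) tails, came from mouse embryonic stem cells (ES-E14TG2a background) that were grown on gelatin in 2i medium with LIF. That medium contains CHIR99021, an inhibitor of GSK3, and PD0325901, an inhibitor of MEK. WT cells expressed FLAG-tagged Trim71, and R783H cells expressed FLAG-tagged Trim71 with an amino-acid change linked to hydrocephalus, so the controls carry the tag as well. There were 3 libraries of each, A, B and C, and the comparison asks which transcripts differ between the 2 kinds of cell. What a letter stands for (a clone, a culture or a library preparation) is not in the labels, so the p-values measure only the spread between these libraries, which may be technical.

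Homologous recombination repairs a broken chromosome by copying the sister chromatid. The broken ends are trimmed to single strands, Brca1, Palb2 and Brca2 prepare those strands for exchange, and the strand then invades the intact copy. Fanconi proteins act at crosslinked DNA, where a core complex ubiquitinates the pair Fancd2 and Fanci and nucleases then cut the lesion out. The kinases Atm and Atr report breaks and single-stranded DNA to the checkpoint kinases Chek2 and Chek1. Embryonic stem cells divide fast, spend much of their cycle in S phase and are known to rely on recombination for repair.

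The libraries held 20894277 to 29079670 counts, and each R783H library was deeper than each WT library. Trim71 mRNA, which carries the change, was at 131, 131 and 159 CPM in WT A, B and C, compared with 152, 129 and 150.5 CPM in R783H A, B and C, where CPM is the count per 1000000 counts after TMM scaling. Its groups overlapped. Counts of mRNA do not show the amino-acid change itself, so this gives no check of the labels. The 8 pluripotent stem cell markers summed to 6548 to 6643 CPM in WT and 6217 to 6299 CPM in R783H, with at least 9053 counts for each marker in each library. Of the 8, Zfp42 (-0.36), Nanog (-0.23) and Pou5f1 (-0.21) were called lower and Tfcp2l1 (0.17) higher by their log2 fold changes. Pou5f1 was not called with a length and GC offset, described below, and Tfcp2l1 was then called lower, at -0.16. Summed levels of 8 fibroblast markers were 4.03 to 4.80 CPM in WT and 3.21 to 4.26 CPM in R783H, and none of Col3a1, Dcn, Lum and Postn had more than 7 counts in a library. Thy1, also on the fibroblast list, was called lower, at 25 to 34 counts in WT and 2 to 8 in R783H, while Col1a2 (0.38), Pdgfra (0.37) and Col1a1 (-0.45) were not called. The 8 markers of differentiated lineages summed to 26.3 to 29.6 CPM in WT and 24.1 to 27.6 CPM in R783H, of which T (-1.89) and Mixl1 (-1.06) were called lower and Gata4 (1.08), Sox1 (0.66) and Sox17 (1.29) higher. The part of these markers in the results below was not tested. In bulk RNA, fewer cells that express a gene and less RNA per cell cannot be told apart.

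A gene was called where its Benjamini-Hochberg adjusted p, from the quasi-likelihood test of edgeR, was under 0.05, and 24 of the 40 were called (60.0%). Among all genes tested 64.5% were called, so the share of called genes in the set was close to that of the transcriptome. In R783H cells 15 of the 40 were higher, where 33.5% of all genes were, and 9 were lower, where 30.9% of all genes were. The median log2 fold change was 0.07 in the set and 0.03 over all genes. The 2 groups were apart in CPM, with no overlap, for 28 of the 40 (70.0%), beside 68.1% of all genes. Called changes were mostly small, with a median absolute log2 fold change of 0.30 against 0.47 for all called genes. These medians are not matched by count, since the lowest count in a library was 100 in the set and 0 among all genes tested. Just 4 of the 24 called genes of the set differed by at least 1.5-fold, namely Rad50, which fell, and Atr, Xrcc3 and Fanca, which rose. The balance of directions depended on the scaling. Library size alone gave 20 higher and 6 lower. An offset for transcript length and GC content gave 25 called, 9 higher and 16 lower. With it 68.8% of all genes that had a length were called, and 31.2% were higher and 37.6% lower. With that offset the median turned to -0.06, beside -0.03 over all genes. The set as a whole therefore had no direction that held across scalings, and the results below concern single genes.

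**Figure D1:**
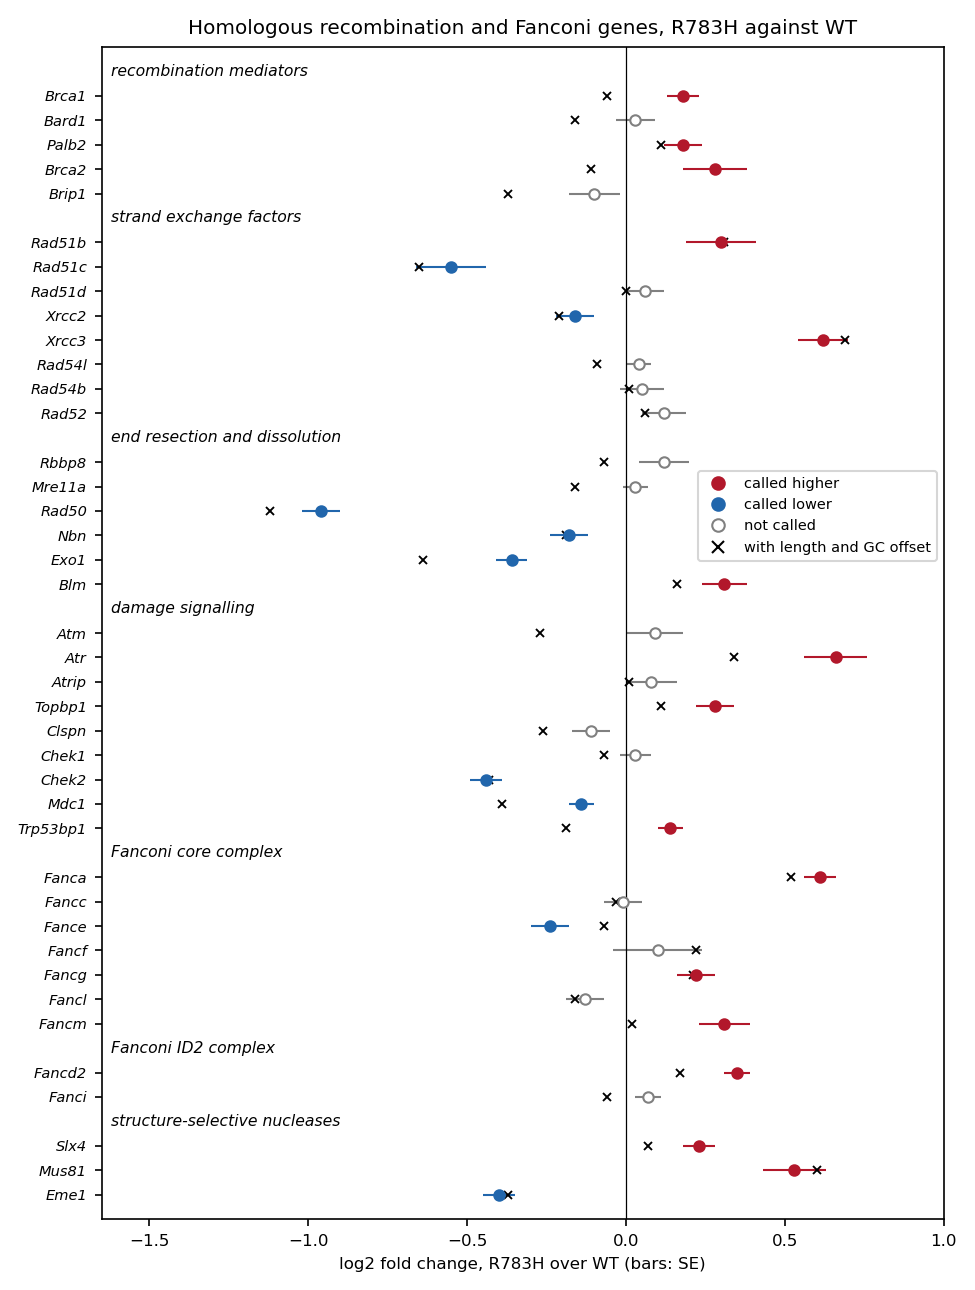
Log2 fold change of each of the 40 genes, R783H over WT, with bars for the standard error (SE); filled circles were called by edgeR and open circles were not. Black crosses give the value with the length and GC offset, which lies left of the circle for most genes. Rad50 is furthest to the left at -0.96, and Atr, Xrcc3 and Fanca are furthest to the right.

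Of the 24 called genes, 13 kept their direction and their call in all 15 alternatives that were computed. These were Rad51c, Xrcc3, Rad50, Exo1, Blm, Atr, Topbp1, Chek2, Fanca, Fancg, Fancd2, Mus81 and Eme1. The other 11 lost the call or turned direction in at least 1 alternative. Calls kept in every alternative were not counted over all genes, so the 13 cannot be set against the transcriptome. Of the 16 genes that were not called, 6 were called in none of the alternatives, namely Rad51d, Rad54b, Atrip, Chek1, Fancc and Fancf. Another 7 of the 16 were called lower with the length and GC offset, namely Bard1, Brip1, Rad54l, Mre11a, Atm, Clspn and Fancl. With library size alone Rad54l, Rad52, Rbbp8, Mre11a and Fanci were called higher, so Rad54l and Mre11a were called in opposite directions by different scalings.

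Promoter windows from RefSeq (GRCm38.p6, 250 bases before to 50 bases after a start site) were found for 32 of the 40. No window was given for Rad51d, Xrcc2, Rad54b, Rbbp8, Rad50, Nbn, Exo1 and Fancd2. Both strands were searched for 3 forms of the E2F site, TTTCCCGC, TTTGGCGC and TTTCGCGC, which share letters at their ends. E2F factors drive many genes of S phase. At least 1 form was in a window of 8 of the 32 (25.0%), against 449 of 10766 tested genes with a window (4.17%). The 8 did not move together, since Brca2, Fancg and Topbp1 were called higher, Chek2, Mdc1 and Rad51c were called lower, and Bard1 and Clspn were not called. With the length and GC offset Bard1 (-0.16) and Clspn (-0.26) were called lower too, and Brca2 (-0.11) was not called. The calls of the other genes among the 8 stayed. The other 24 genes with a window had 11 higher, 2 lower and 11 not called, beside 33.5% higher and 30.9% lower among all genes. With the offset Brca1, Palb2, Fancm, Slx4 and Fance of these 24 lost their call, and Trp53bp1 was called lower. Brip1, Rad54l, Mre11a, Atm and Fancl of the 24 were then called lower as well. The directions of both groups of genes thus depended on the offset. A CCAAT box (CCAAT) was in a window of 19 of the 32 (59.4%), against 43.4% of tested genes, and a CHR element (TTTGAA) in 3 of the 32 (9.38%), against 14.0%. Windows of genes called lower (Rad51c, Chek2) and higher (Topbp1, Fancg) are shown to set the E2F letters, in capitals, beside opposite changes. Xrcc3, the partner of Rad51c that rose, is shown as a window without these letters. A match is a description of the letters and not a bound site. The windows are chr11:87404905-87405204 (minus strand) for Rad51c, 1 of its 2 windows, each with 1 match, chr5:110839733-110840032 (plus strand) for Chek2, chr9:103305077-103305376 (plus strand) for Topbp1, chr4:43010252-43010551 (minus strand) for Fancg and chr12:111813830-111814129 (minus strand) for Xrcc3. Each is written 5′ to 3′ on the strand of the gene.
Rad51c: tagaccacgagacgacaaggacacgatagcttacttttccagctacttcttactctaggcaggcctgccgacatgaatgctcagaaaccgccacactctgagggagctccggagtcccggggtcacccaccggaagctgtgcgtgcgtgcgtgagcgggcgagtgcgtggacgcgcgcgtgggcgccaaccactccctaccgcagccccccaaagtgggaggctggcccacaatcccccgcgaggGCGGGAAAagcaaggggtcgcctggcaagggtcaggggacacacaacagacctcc
Chek2: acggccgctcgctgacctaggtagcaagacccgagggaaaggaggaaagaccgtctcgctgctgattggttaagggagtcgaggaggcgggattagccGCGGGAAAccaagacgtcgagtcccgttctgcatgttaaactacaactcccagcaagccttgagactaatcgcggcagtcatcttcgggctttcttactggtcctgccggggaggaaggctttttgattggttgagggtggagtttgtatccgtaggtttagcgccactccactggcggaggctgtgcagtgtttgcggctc
Topbp1: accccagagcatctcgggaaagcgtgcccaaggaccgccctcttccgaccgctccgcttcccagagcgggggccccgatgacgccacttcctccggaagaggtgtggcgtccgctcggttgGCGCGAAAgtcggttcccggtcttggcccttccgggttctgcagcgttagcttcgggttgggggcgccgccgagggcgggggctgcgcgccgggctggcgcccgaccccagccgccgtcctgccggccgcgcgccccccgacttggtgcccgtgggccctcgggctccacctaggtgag
Fancg: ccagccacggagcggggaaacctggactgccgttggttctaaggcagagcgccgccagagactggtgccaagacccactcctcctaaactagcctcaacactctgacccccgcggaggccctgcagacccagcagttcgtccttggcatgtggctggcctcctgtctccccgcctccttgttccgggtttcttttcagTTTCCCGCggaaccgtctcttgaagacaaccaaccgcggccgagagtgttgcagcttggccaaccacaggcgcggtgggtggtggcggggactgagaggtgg
Xrcc3: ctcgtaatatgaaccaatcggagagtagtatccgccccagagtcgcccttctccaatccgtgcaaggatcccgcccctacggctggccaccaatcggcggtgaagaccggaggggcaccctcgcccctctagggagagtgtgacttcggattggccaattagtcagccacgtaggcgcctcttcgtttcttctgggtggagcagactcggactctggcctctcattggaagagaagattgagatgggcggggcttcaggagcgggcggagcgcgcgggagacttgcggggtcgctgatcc
Counted from the start site as base 1, with no base 0, the capitals begin at base -5 in Rad51c, -152 in Chek2, -129 in Topbp1 and -52 in Fancg.

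Among the 5 mediators, which act on the single strands before exchange, Brca1, Palb2 and Brca2 were higher in R783H, and Bard1 and Brip1 were not called. Brca1, a ubiquitin ligase subunit, was at 163, 159 and 171 CPM in WT A, B and C, compared with 191, 175 and 189 CPM in R783H A, B and C. All R783H values lay above all WT values, with a log2 fold change of 0.18 (SE 0.05; edgeR adjusted p 0.00917). Brca2, a mediator that binds Palb2, was at 113, 115 and 123 CPM in WT and 149, 114 and 163 CPM in R783H. R783H A and C were high and R783H B lay within the WT range, so the groups overlapped, with a log2 fold change of 0.28 (SE 0.10; edgeR adjusted p 0.032). Palb2, the bridge between Brca1 and Brca2, went from 29.1 ± 1.89 to 33.1 ± 1.43 CPM (SD, n = 3 each; log2 fold change 0.18, SE 0.06). None of these 3 calls held with the length and GC offset, which gave -0.06 for Brca1, -0.11 for Brca2 and 0.11 for Palb2. With the offset and the replicate block together, Brca2 was called lower, at -0.11. Leaving out R783H A or WT B ended all 3 calls, and without R783H C or WT A just Brca1 stayed called. Brca2 without R783H B had a log2 fold change of 0.39. The log2 fold changes of Bard1, the ring-finger partner of Brca1, and of the helicase Brip1 were 0.03 (SE 0.06) and -0.10 (SE 0.08), and the offset gave -0.16 and -0.37.

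Rad51b, Rad51c, Rad51d, Xrcc2 and Xrcc3 assist strand exchange and work as complexes, one of Rad51b, Rad51c, Rad51d and Xrcc2 and another of Rad51c and Xrcc3. They moved apart from each other. Xrcc3 rose from 14.8, 18.4 and 15.5 CPM in WT A, B and C to 25.4, 23.8 and 25.8 CPM in R783H A, B and C. The lowest R783H value was above the highest WT value, in WT B, and the log2 fold change was 0.62 (SE 0.08; edgeR adjusted p 6.53e-05). Rad51c, the subunit present in both complexes, was at 11.3, 9.09 and 10.4 CPM in WT and 7.72, 6.31 and 6.85 CPM in R783H. It fell without overlap of the groups, by 0.55 on the log2 scale (SE 0.11; edgeR adjusted p 0.00107), at 179 to 232 counts a library. The longest Rad51c transcript, of 3944 nt, has near-identical sequence in transcripts of Chek2, Gm12088, Med16, Platr1, Reps1, Tbk1 and Ube2d2a. Those stretches are 108 to 112 nt long at 98.1 to 99.1% identity. Their part in the Rad51c count was not tested. Xrcc2 fell from 25.9 ± 1.23 to 23.1 ± 0.311 CPM (SD, n = 3 each; log2 fold change -0.16, SE 0.06). Its call was lost with library size alone, with no filter on low counts, with DESeq2 and without R783H C, WT B or WT C. Rad51b rose by 0.30 (SE 0.11) at 122 to 253 counts a library and lost its call in 6 of 15 alternatives. Rad51d was not called, at 0.06 (SE 0.06). Of the factors that remodel or anneal strands, the translocase Rad54l (log2 fold change 0.04, SE 0.04), its relative Rad54b (0.05, SE 0.07) and the annealing protein Rad52 (0.12, SE 0.07) were not called. Xrcc3 shares 12 nt of exon with Klc1 on the other strand, and Klc1 itself rose by 0.56 on the log2 scale. Whether Klc1 reads entered the Xrcc3 count was not tested, and the use of strand in counting is not given in the sources used here. Rad54b shares 35.8% of its exon sequence with Fsbp on the same strand, and the weakly expressed Fsbp rose by 0.93 on the log2 scale. Rad54l shares 15.4% of its exon sequence with Lrrc41 on the other strand, which was at 0.02 (SE 0.05) and not called.

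Rad50 had the largest log2 fold change of the 40, in either direction. The ATPase Rad50, the nuclease Mre11a and the adaptor Nbn form the complex that senses and starts to trim broken ends. Rad50 was at 51.6, 52.1 and 53.5 CPM in WT A, B and C, compared with 27.0, 25.5 and 28.6 CPM in R783H A, B and C. Every R783H library was at about the same low level, far under every WT library, and the level in WT was 1.94-fold that in R783H, a log2 fold change of -0.96 (SE 0.06; edgeR adjusted p 2.22e-07). The offset moved the log2 fold change to -1.12, and across alternatives it ran from -1.12 to -0.87. In contrast Mre11a was at 89.8, 90.7 and 95.1 CPM in WT and 92.9, 94.8 and 94.4 CPM in R783H, with overlapping groups and a log2 fold change of 0.03 (SE 0.04). Mre11a was called lower with the offset, at -0.16, and higher with library size alone, at 0.11. Nbn fell from 46.0 ± 1.30 to 40.7 ± 1.92 CPM (SD, n = 3 each; log2 fold change -0.18, SE 0.06), and this call was lost with library size alone and without WT B.

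Of the enzymes that resect further, Exo1, a 5′ exonuclease, fell from 119, 121 and 122 CPM in WT A, B and C to 94.5, 90.3 and 97.0 CPM in R783H A, B and C. The groups were well apart, with a log2 fold change of -0.36 (SE 0.05; edgeR adjusted p 3.55e-05) that the offset moved to -0.64. The helicase Blm, which unwinds ends and dissolves joint molecules, rose from 104 ± 6.28 to 129 ± 11.8 CPM (SD, n = 3 each), a log2 fold change of 0.31 (SE 0.07). With the offset Blm stayed higher at 0.16. Rbbp8, also called CtIP, which activates Mre11a for the first cut, was not called, at 30.5 ± 3.07 CPM in WT and 33.2 ± 2.50 CPM in R783H (SD, n = 3 each).

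**Figure D2:**
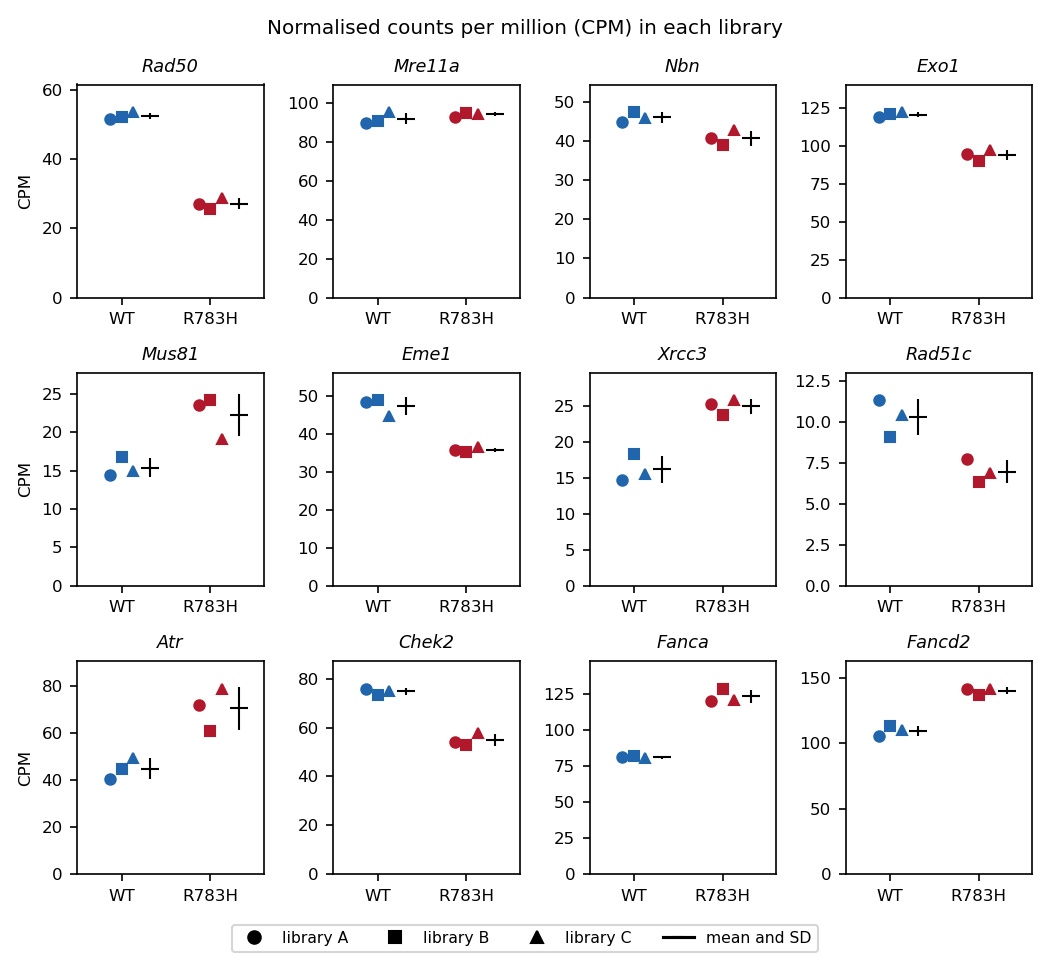
CPM of 12 of the genes in each library, with WT in blue and R783H in red, circles, squares and triangles for libraries A, B and C, and a bar for the mean and SD of 3 libraries; each vertical axis starts at 0. Groups are apart in every panel but that of Mre11a. Opposite moves are visible for Mus81 and Eme1 and for Xrcc3 and Rad51c.

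The 9 signalling genes included 3 called higher, 2 called lower and 4 not called, so 55.6% were called, beside 64.5% of all genes. Atr, the kinase that answers single-stranded DNA at stalled forks, was at 40.2, 44.6 and 49.1 CPM in WT A, B and C, compared with 71.7, 60.6 and 78.7 CPM in R783H A, B and C. R783H B was the lowest of its group and still above every WT library, and the log2 fold change was 0.66 (SE 0.10; edgeR adjusted p 1.08e-04). With the offset the log2 fold change of Atr was 0.34, a smaller rise. Gm16794, an antisense gene that shares 1.96% of the exon sequence of Atr, rose too, from 4 to 10 counts in WT to 19 to 30 in R783H. Atrip, the obligate partner of Atr, was not called, at 27.5, 28.8 and 28.4 CPM in WT and 28.6, 33.3 and 27.5 CPM in R783H, and shares 16.0% of its exon sequence with Trex1. Topbp1, the activator of Atr, rose from 284 ± 10.4 to 345 ± 26.8 CPM (SD, n = 3 each; log2 fold change 0.28, SE 0.06), and its value with the offset was 0.11.

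Downstream, Chek1, the kinase target of Atr, was at 71, 74.4 and 73.7 CPM in WT and 77.8, 70.2 and 75.8 CPM in R783H. These overlapped, with a log2 fold change of 0.03 (SE 0.05). Clspn, the adaptor between Atr and Chek1, was not called, at -0.11 (SE 0.06), and was called lower with the offset and with RLE factors. Atm, the kinase that answers double-strand breaks, was at 134, 138 and 151 CPM in WT and 154, 125 and 169 CPM in R783H, where R783H B was under every WT library and R783H A and C above every one. Its log2 fold change was 0.09 (SE 0.09), 0.18 and called without R783H B, and -0.27 and called lower with the offset. Chek2, the kinase target of Atm, fell from 75.9, 73.3 and 75.1 CPM in WT A, B and C to 54.1, 52.9 and 57.7 CPM in R783H A, B and C. All R783H values were lower than all WT values, with a log2 fold change of -0.44 (SE 0.05; edgeR adjusted p 1.70e-05), and the offset left it at -0.43. Of the chromatin adaptors, Mdc1 fell from 192 ± 4.71 to 174 ± 4.70 CPM (log2 fold change -0.14, SE 0.04). Its call was lost with library size alone and without WT C, and the offset moved it to -0.39. Trp53bp1, which favours end joining over resection, went from 113 ± 3.61 to 124 ± 1.63 CPM (SD, n = 3 each). It was called higher at 0.14 (SE 0.04) but called lower with the offset, at -0.19, so its direction depended on the processing. Trp53bp1 shares 15% of its exon sequence with Tubgcp4 on the other strand, which was at 0.01 (SE 0.06) and not called.

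Within the Fanconi core complex, 3 of 7 subunits were called higher, 1 lower and 3 not. The 57.1% called is close to the 64.5% of all genes. Fanca, a scaffold of the complex, rose from 80.7, 81.8 and 80.1 CPM in WT A, B and C to 119.8, 128 and 121 CPM in R783H A, B and C. Libraries within each group agreed closely and the groups were far apart, with a log2 fold change of 0.61 (SE 0.05; edgeR adjusted p 9.27e-07) and 0.52 with the offset. Fanca shares 10.5% of its exon sequence with Zfp276 on the other strand, which rose by 0.22 on the log2 scale. Fancg, which binds Fanca, rose from 21.7 ± 0.667 to 25.3 ± 0.786 CPM (SD, n = 3 each; log2 fold change 0.22, SE 0.06). Fancm, the translocase that anchors the complex on DNA, rose from 153, 160.0 and 167 CPM in WT to 217, 169.8 and 209 CPM in R783H, with R783H B lowest of its group and no overlap. Its log2 fold change was 0.31 (SE 0.08), but with the offset it was at 0.02 and not called. Fance, which bridges the core to Fancd2, fell from 37.1 ± 2.09 to 31.3 ± 1.24 CPM (SD, n = 3 each; log2 fold change -0.24, SE 0.06), and this call too was lost with the offset, at -0.07. The ubiquitin ligase subunit Fancl (-0.13, SE 0.06) and the subunits Fancc (-0.01, SE 0.06) and Fancf (0.10, SE 0.14) were not called by their log2 fold changes, and Fancl was called lower in 4 alternatives. Exon sequence is shared with the other strand by Fancl (13.7%, with Vrk2), Fancc (16.4%, with Gm16133) and Fancf (15%, with Gas2). Vrk2 (0.22, SE 0.09) and Gas2 (0.45, SE 0.2) were not called.

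Fancd2 and Fanci are the substrates of the core complex and form a clamp on DNA. Fancd2 rose from 106, 113 and 111 CPM in WT A, B and C to 142, 137 and 142 CPM in R783H A, B and C, with no overlap and a log2 fold change of 0.35 (SE 0.04; edgeR adjusted p 3.78e-05). It remained higher with the offset, at 0.17. Fanci was at 118 ± 2.66 CPM in WT and 124 ± 2.48 CPM in R783H (SD, n = 3 each) and was not called, at a log2 fold change of 0.07 (SE 0.04), and shares 16.0% of its exon sequence with Polg on the other strand. The nuclease subunits Mus81 and Eme1 and the scaffold Slx4, which act in cutting branched DNA, were all called, beside 64.5% of all genes. With the offset 2 of these 3 were called. Mus81, the catalytic subunit of a nuclease for stalled forks and joint molecules, rose from 14.5, 16.8 and 15 CPM in WT A, B and C to 23.6, 24.2 and 19.2 CPM in R783H A, B and C. R783H C was nearer to the WT libraries than R783H A and B, without overlap, and the log2 fold change was 0.53 (SE 0.10; edgeR adjusted p 6.12e-04). Eme1, its non-catalytic partner, fell from 48.6, 48.9 and 44.8 CPM in WT to 35.7, 35.4 and 36.5 CPM in R783H, again without overlap and with a log2 fold change of -0.40 (SE 0.05; edgeR adjusted p 6.53e-05). Eme1 shares 221 of its 2762 nt of exon sequence with Lrrc59 on the other strand, and the abundant Lrrc59 fell by 0.83 on the log2 scale. The part of Lrrc59 reads in the change of Eme1 was not tested. Mus81 shares 4.85% of its exon sequence with Efemp2, which was at 0.21 (SE 0.10) and not called. Slx4, the scaffold that gathers nucleases, rose from 46.0 ± 0.513 to 53.8 ± 1.5 CPM (SD, n = 3 each; log2 fold change 0.23, SE 0.05), a call lost with the offset at 0.07.

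Several proteins of the set act as fixed partners, so the ratio of 2 partners' counts was taken within each library, which no library scaling can alter, though the length and GC offset can. The 12 pairs were chosen with the fold changes known and are given without a test. Xrcc3 over Rad51c moved most, from log2 ratios of 0.39, 1.02 and 0.58 in WT A, B and C to 1.72, 1.91 and 1.91 in R783H A, B and C. The mean ratio was 2.28-fold that of WT. Rad50 over Mre11a went from -0.80, -0.80 and -0.83 to -1.78, -1.90 and -1.72, a mean change of -0.99. WT libraries lay within 0.03 of each other there, a small spread beside that change. Mus81 over Eme1 went from -1.75, -1.54 and -1.58 to -0.60, -0.55 and -0.93, so the ratio in R783H was 1.91-fold that in WT. Rad51b over Rad51c changed by 0.85 and Atr over Atrip by 0.58, the latter with a spread of 0.33 (SD) among R783H libraries. With the length and GC offset, the fitted log2 fold changes of the partners differed by 1.34 for Xrcc3 over Rad51c, -0.96 for Rad50 over Mre11a, 0.97 for Mus81 over Eme1, 0.96 for Rad51b over Rad51c and 0.33 for Atr over Atrip. Without the offset, smaller changes of the count ratio were seen for Fanca over Fancg (0.38), Fancd2 over Fanci (0.28), Fancc over Fance (0.24), Brca1 over Bard1 (0.15), Nbn over Mre11a (-0.21) and Xrcc2 over Rad51d (-0.22). Palb2 over Brca2 overlapped between the groups, at -0.08. A ratio shows unequal change of the 2 mRNAs and not which of them moved.

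**Figure D3:**
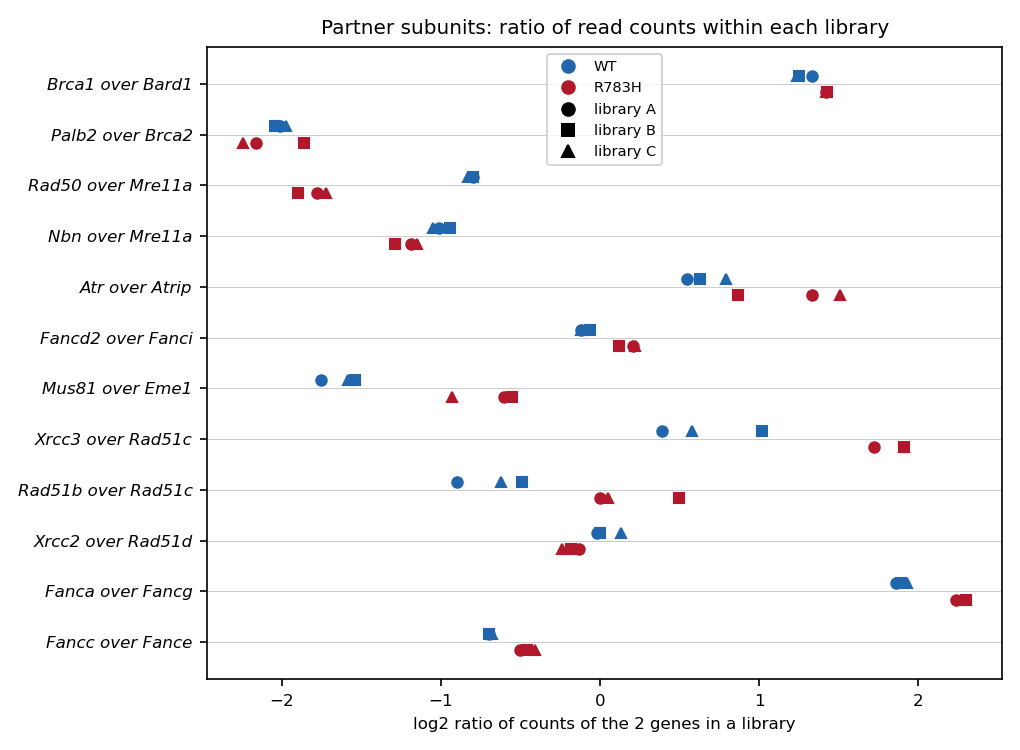
Log2 ratio of the counts of 2 partner genes in each library, with WT in blue above and R783H in red below the line of each pair and symbols for libraries A, B and C. The R783H values sit left of the WT values for Rad50 over Mre11a and right of them for Mus81 over Eme1 and Xrcc3 over Rad51c, and those of Palb2 over Brca2 overlap.

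Transcript length moved with several of these results. The longest annotated transcripts of the 40 genes had a median of 4528 nt, against 3364 nt for the tested genes with a length. The Spearman correlation between length and log2 fold change was 0.256 across 13067 genes and 0.165 across the 40, and it was -0.273 across the 40 with the offset; genes share libraries, so these only describe. Among the 10 longest, 5706 to 10724 nt, 6 rose and 2 fell, where 33.5% of all genes rose and 30.9% fell. The median log2 fold change of these 10 was 0.16, which turned to -0.15 with the offset. Brca1, Brca2, Atm, Atr, Fancm, Trp53bp1 and Slx4 are in that group. The 10 shortest, 1691 to 2870 nt, had 3 higher and 4 lower, with medians of -0.04 and -0.03. Libraries of both groups also departed from their group mean with length, and deviations from a shared mean are tied to each other. The Spearman correlation between length and the deviation of a library from its group mean was -0.453 in R783H B, 0.208 in R783H A and 0.505 in R783H C, and -0.231, -0.334 and 0.538 in WT A, B and C. R783H B was the lowest R783H library for 8 of the 10 longest genes, with a median log2 difference of -0.17 from the mean of A and C. It was also the lowest for 8 of the 10 next longest (median -0.13) and for 6 of the 10 shortest (-0.05). Among the remaining 10 it was the lowest for 4 (0.02). R783H B stood apart from its group over all genes tested too, by the chi-square per degree of freedom between 2 libraries. That value was 11.3 for R783H A and B, 12.3 for R783H B and C, and 2.18 for R783H A and C. The WT pairs had 1.97 to 4.39. The part of length, and of whatever differs between libraries with it, in the small rises of long genes was not tested. Without R783H B 25 of the 40 were called, 15 higher and 10 lower.

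**Figure D4:**
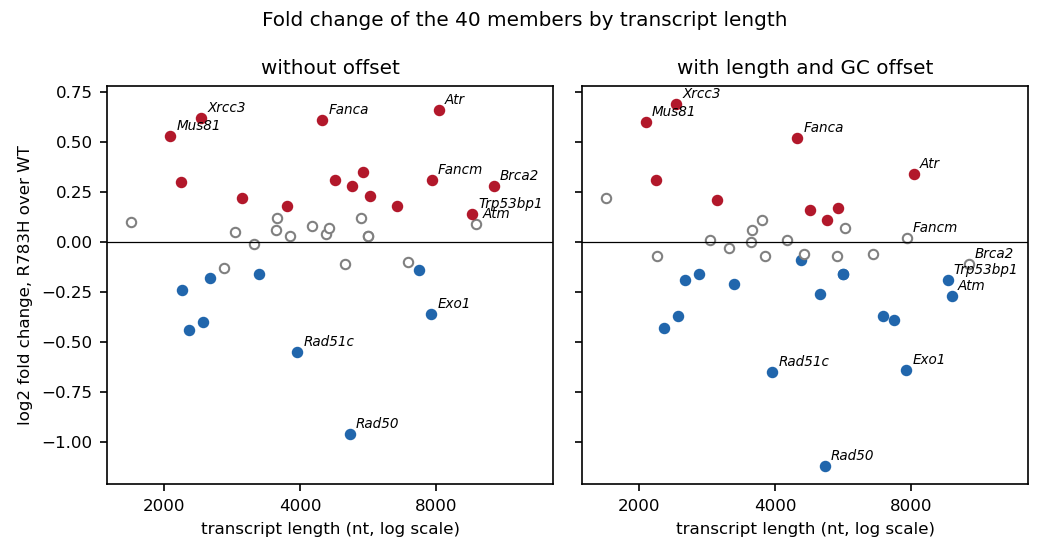
Log2 fold change of the 40 genes against the length of the longest annotated transcript, on a log axis, without (left) and with (right) the length and GC offset; red and blue points were called higher and lower and open points were not called. Brca2, Fancm and Trp53bp1 are above 0 on the left and at or below about 0 on the right, while Rad50, Rad51c, Xrcc3 and Fanca stay on their side of 0.

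Levels could be compared between genes only per length, as CPM per kb of the longest transcript. In WT the order began with Topbp1 at 54.3, Chek2 at 32.8 and Mdc1 at 26.1 CPM per kb. It ended with Rad51b at 2.94, Brip1 at 2.93, Fancf at 2.92 and Rad51c at 2.60. The neighbours Rad51b, Brip1 and Fancf differed by less than the spread between libraries. Topbp1 was first and Rad51c last in R783H too, at 66.0 and 1.76 CPM per kb. Rad50 went from place 24 in WT to place 36 in R783H, Fanca from 13 to 3, Atr from 36 to 28 and Xrcc3 from 32 to 25. Smaller moves down were those of Chek2 (2 to 8), Mdc1 (3 to 9), Eme1 (9 to 15), Exo1 (16 to 22) and Xrcc2 (26 to 32). Summed over the 40 genes, the WT libraries A, B and C reached 2735, 2775 and 2863 CPM and the R783H libraries A, B and C 3063, 2838 and 3116 CPM, with R783H B just below WT C.

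Other genes of these pathways were taken from general knowledge with earlier results of these data known. Of 32 further recombination genes 4 rose and 12 fell (median -0.08), so that 16 of the 32 were called, a smaller share than the 64.5% of all genes. Rpa2, a subunit of the single-strand binding protein, changed by -0.73 (SE 0.05) and Sfr1, an accessory factor of strand exchange, by -0.57 (SE 0.04). The RecQ helicase Wrn rose by 0.69 (SE 0.08), the scaffold Spidr by 0.53 (SE 0.06) and the helicase Mcm8 by 0.36 (SE 0.08). With the offset Wrn was at 0.45 and Spidr at 0.31, both still called. Of 14 further Fanconi genes 1 rose, Ercc4, and 9 fell (median -0.29), which is 71.4% called. Faap24, which joins Fancm to the core, changed by -0.73 (SE 0.09), Faap100 by -0.53 (SE 0.08) and the ubiquitin ligase Rfwd3 by -0.48 (SE 0.04). The nuclease subunit Ercc4 was at 0.27 (SE 0.06) and was not called with the offset. Of 14 further signalling genes 1 was higher, Rif1, and 7 were lower, which is 57.1% called. The lower genes included the fork protein Tipin (-0.60, SE 0.04), the clamp subunit Rad1 (-0.46, SE 0.07) and the histone H2afx (-0.45, SE 0.05). Rif1 was at 0.37 (SE 0.10), and at 0.02 and not called with the offset, which also moved H2afx to -0.20.

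Of 10 end-joining genes, which rejoin ends without a template, 5 were higher and 2 lower, and the 70.0% called is close to the 64.5% of all genes. Just 2 were higher with DESeq2, without R783H A or without WT C. Prkdc, the catalytic subunit of the kinase of this pathway, rose by 0.60 (SE 0.07), the nuclease Dclre1c by 0.33 (SE 0.08) and Xrcc4 by 0.28 (SE 0.11). With the offset Prkdc was at 0.18 and still called and Dclre1c was not called, and Xrcc4 lost its call in 12 of 15 alternatives. The Ku subunit Xrcc6 changed by -0.44 (SE 0.05) and Nhej1 by -0.38 (SE 0.15), and Nhej1 lost its call in 6 of 15 alternatives. Many recombination genes are known to peak in S phase, so 20 genes known for mRNA that follows the cell cycle were counted beside them. Whether their mRNA follows the cycle in embryonic stem cells was not measured here. Of the 20 genes 1 was higher, E2f1 (0.33, SE 0.06), and 16 were lower (median -0.44), beside 33.5% higher and 30.9% lower among all genes. With the offset the median was -0.52 in these genes and -0.06 in the set of 40, which had 0.07 without it. Ccne1, a cyclin of entry into S phase, changed by -1.63 (SE 0.05), the ribonucleotide reductase subunit Rrm2 by -1.01 (SE 0.05) and the S-phase cyclin Ccna2 by -0.86 (SE 0.04). Their part in the changes of Rad50, Exo1, Chek2, Rad51c and Eme1 was not tested.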

How the data were processed

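The authors deposited a table of raw counts per Entrez Gene identifier for 6 libraries. Per the submitters' processing notes, CASAVA 1.4, HISAT2 and SAMtools were used with build mm10. The counter, its annotation and its use of strand are not given in the sources used here. Of 27179 identifiers, 6989 had no counts and 25275 matched a symbol in the RefSeq GRCm38.p6 table. Lengths and GC content came from the longest GENCODE M21 transcript. Genes were kept by filterByExpr (10 counts) and tested with edgeR 4.0.16 (R 4.3.3; TMM; quasi-likelihood test; Benjamini-Hochberg over all 14199 genes), with no replicate block. The biological coefficient of variation was 5.45%. Depth puts 3 counts at 0.103 to 0.144 CPM, for counting error only. Alternatives were RLE factors, library size alone, other filters, DESeq2 1.42.0, limma-voom (limma 3.58.1), a replicate block, a length and GC offset (mgcv 1.9.3) and leaving out each library. On simulated data of 14064 genes, 84 of 100 changes of 1.5-fold and 88 of 100 of 2-fold were called. There 21 genes without a planted change were called as well. No other changes were planted, whereas 64.5% of genes were called in the deposited data, so the settings differ.

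The members and lists were chosen with earlier results of these data known. All 40 are named. Values in every library were set for called members with an absolute log2 fold change of at least 0.4 and for Brca1, Brca2, Atm, Atr, Chek1, Fancd2 and Fanca. Those for other members, and the partner pairs, were added after the values were seen. From each other list, up to 3 called genes per direction with the largest change and a mean of at least 50 counts were named, except 1 gene that is not reported here. Same-letter libraries did not deviate together (r of -0.07, 0.00682 and 0.0851), so the letters were not treated as pairs.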

Additional observations from a re-analysis of the deposited data

How the results depend on the processing

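Across 15 alternatives the number of members called stayed within 1.5 times 24. Leaving out 1 library gave 17 to 25 called, 10 to 16 higher and 7 to 10 lower, with medians of 0.05 to 0.08. Without R783H A, and likewise without WT B, 10 were higher, where all 6 libraries gave 15. Over all genes the fits that left out 1 library called 8161 to 9882, and 51 to 61 other pathway genes. With the length and GC offset, with or without the block, 9 members rose and 16 fell (median -0.06); library size alone gave a median of 0.16. The cause was not tested. Directions turned with the offset, in both fits, for Brca1 (-0.06), Bard1 (-0.16), Brca2 (-0.11), Rad54l (-0.09), Rbbp8 (-0.07), Mre11a (-0.16), Atm (-0.27), Chek1 (-0.07), Trp53bp1 (-0.19), Fanci (-0.06) and Trim71 (-0.26), and with library size alone for Fancc (0.07). The other turns were in genes that were not called. Without R783H A they were Bard1 (-0.02), Chek1 (-0.01), Fancc (0.00098), Fancf (-0.08) and Trim71 (-0.02). Without R783H B the turn was in Atrip (-0.03). Without R783H C they were Bard1 (-0.0031), Rad54b (-0.05), Atm (-0.02) and Trim71 (-0.01). Without WT A they were Bard1 (-0.01), Fancc (0.03) and Trim71 (-0.02), and without WT B Trim71 (-0.02). Leaving out 1 library gave up to 0.18 for Atm, 0.12 for Atrip and 0.13 for Trim71.

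The replicate block alone, which treats same-letter libraries as pairs, called 9260 genes, 24 members (15 higher and 9 lower) and 56 other pathway genes. With the block and the offset together, Brca2 was called lower (-0.11, edgeR adjusted p 0.035) and Rad54l was not called, where the offset alone left Brca2 not called and called Rad54l lower. Not every library correlated best with its own letter.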
